A study of Drosophila melanogaster and Drosophila simulans and Drosophila yakuba with 27 samples.

Results

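RAL-208 and Canton S are the only pair of strains of one species in a survey of gene expression across 9 Drosophila lines, and their difference was measured in 3 larval tissues. All 6 libraries of Drosophila melanogaster were taken, out of 27 libraries in the series: RAL-208 eye-antennal discs, wing discs and brains, and Canton S eye-antennal discs, wing discs and brains. Each strain has 1 library of each tissue. Both strains are labelled wild type, were raised at 25 °C on standard food, and were dissected as wandering third-instar larvae, so neither carries a mutation or treatment named in the labels. RAL-208 (labelled DGRP-208) is an inbred line of the Drosophila Genetic Reference Panel, derived from a natural population, and Canton S is a long-kept laboratory stock. One stock stands for each strain, and the labels do not say how many larvae went into a library.

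Imaginal discs are epithelial sacs of the larva that form adult structures at metamorphosis: the eye-antennal disc forms the eye, the antenna and most of the head capsule, and the wing disc forms the wing and the dorsal thorax. Stocks kept apart differ in nuclear alleles and in the maternally inherited mitochondrial genome. A transcript that differs in level between 2 stocks in every tissue is a different observation from one that differs in a single dissection, and the account below keeps the 2 kinds apart.

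The libraries held between 4114414 reads assigned to genes (RAL-208 wing discs) and 20473119 (RAL-208 brains), and the other 4 held 12143960 to 13613261. A gene was tested where it reached a normalised read count of at least 1 CPM (reads scaled to the same total in every library) in 2 or more of the 6 libraries, which left 9476 of 15439 genes. Levels below are CPM of the library size after TMM scaling, and each difference is log2 RAL-208 minus Canton S. The strain difference was tested with edgeR's quasi-likelihood test with tissue as a block, and a gene is called at a Benjamini-Hochberg adjusted p under 0.05. The 3 tissues serve as the 3 pairs. The p-values therefore measure how evenly a strain difference recurs over tissues, and a difference between the strains cannot be told apart from one between the library sets.

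The libraries carried the markers of their tissues in both strains. The wing selector gene vg was at 325 CPM in RAL-208 wing discs and at 205 in Canton S wing discs, against 4.89 to 16.5 in the other 4 libraries. The eye determination gene toy was at 356 and 344 CPM in the eye-antennal discs of RAL-208 and Canton S and at 1.52 and 7.68 in their wing discs. Brain libraries held 411 CPM of the vesicular glutamate transporter gene VGlut in RAL-208 and 381 in Canton S. Eye-antennal libraries held 69.7 and 44.3 CPM of VGlut in RAL-208 and Canton S. The 6 Y-linked genes looked for had 0 reads in each library.

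Of the 9476 genes, 28 were called, which is 0.295%. Of these, 12 were higher in RAL-208 (0.127% of the genes tested) and 16 were lower (0.169%). The calls rest on few degrees of freedom: 1577 genes (16.6%) had an unadjusted p under 0.05, the 28 adjusted p-values lay between 0.0247 and 0.0498, and DESeq2 called 504 genes (5.32%), the 28 among them. Without the eye-antennal discs, or without the brains, edgeR called 0 genes (643 and 1241 at an unadjusted p under 0.05), and without the wing discs it called 333. All 28 had 1 direction in the 3 tissues, as did 45.0% of all tested genes, and in 25 of them the strains did not overlap in CPM, as was the case for 14.0% of all tested genes. A count with no test behind it gave a wider set. In all 3 tissues, 238 genes (2.51%) differed at least 2-fold the same way, 116 of them higher in RAL-208 (1.22%) and 122 lower (1.29%), and this set holds 24 of the 28 called genes.

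**Figure D1:**
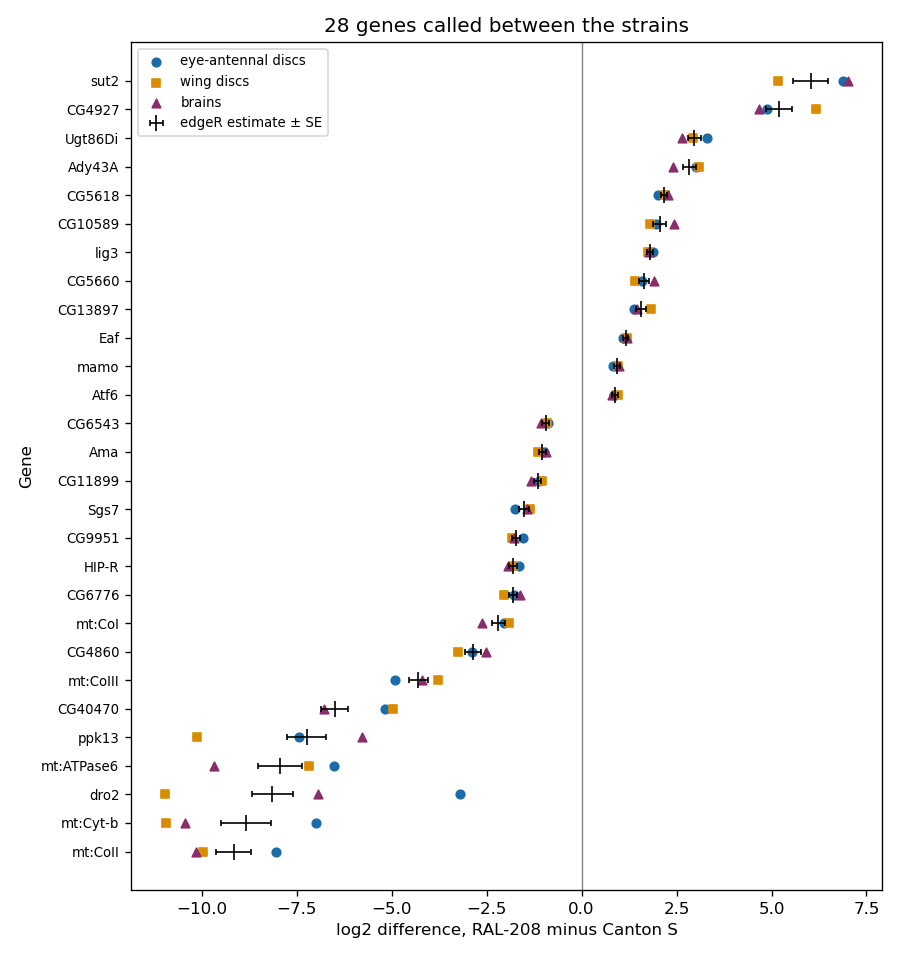
The 28 called genes are ordered by their log2 difference, RAL-208 minus Canton S (horizontal axis). Coloured symbols give each tissue's own difference from 1 library a strain, and the black tick with bars gives the edgeR estimate with its standard error. Most genes near the middle, such as Eaf and Atf6, have their 3 tissues within a narrow span, whereas dro2, ppk13, mt:ATPase6 and mt:Cyt-b spread over several log2 units.

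The mitochondrial genome supplied 5 of the 16 genes called lower in RAL-208. It encodes 3 subunits of cytochrome c oxidase (mt:CoI, mt:CoII and mt:CoIII), the cytochrome b of complex III (mt:Cyt-b), 2 subunits of ATP synthase, subunits of NADH dehydrogenase (the mt:ND genes) and the mitochondrial ribosomal and transfer RNAs. Of its 37 genes in the files, 12 had a read in any library and 10 were tested. None of the 10 was called higher, 5 were called lower, and 6 were at least 2-fold lower in every tissue, the sixth being mt:ND2. The median difference of the 10 was -3.15, against -0.01 over all genes tested.

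mt:CoII had 14, 1 and 6 reads in RAL-208 eye-antennal discs, wing discs and brains, against 3846, 3920 and 5173 in Canton S. In CPM these are 1.14, 0.254 and 0.293 in RAL-208, against 308, 292 and 376 in Canton S. This was the largest fall among the called genes, at -9.16 ± 0.47 (log2 ± SE, n = 3 tissue pairs; edgeR adjusted p = 0.0247), or 574-fold lower in RAL-208. mt:Cyt-b had 6, 0 and 1 reads in RAL-208 against 828, 1028 and 1678 in Canton S, a difference of -8.83 ± 0.65. mt:ATPase6, a subunit of the membrane part of ATP synthase, had 6, 1 and 1 reads against 601, 571 and 991 in Canton S, a difference of -7.94 ± 0.58. These 3 transcripts were close to undetected in RAL-208 in every tissue, while Canton S held 571 to 5173 reads of each in every library.

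The other cytochrome c oxidase subunits were lower but well covered in both strains. mt:CoIII was at 26.1, 49.5 and 46.1 CPM in RAL-208 eye-antennal discs, wing discs and brains, against 787, 686 and 849 CPM in Canton S (-4.30 ± 0.25, edgeR adjusted p = 0.0247). mt:CoI was at 429, 406 and 308 CPM in RAL-208, against 1752, 1529 and 1907 CPM in Canton S (-2.19 ± 0.17, edgeR adjusted p = 0.0411). So the size of the fall differed from one transcript to the next, over neighbouring genes of 1 small genome. mt:ATPase6 and mt:CoIII overlap on the same strand in the reference annotation, so reads in the shared stretch may belong to either.

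Among the NADH dehydrogenase genes the pattern was mixed. mt:ND2 had 8, 4 and 8 reads in RAL-208 against 87, 132 and 239 in Canton S and was not called (-4.11 ± 0.61, edgeR adjusted p = 0.123). mt:ND5 was at 9.25, 22.4 and 6.06 CPM in RAL-208 and at 26.3, 25.1 and 36.9 CPM in Canton S. It was lower in each RAL-208 library and was not called (-1.44 ± 0.50, edgeR adjusted p = 0.273). mt:ND6, with 0, 0 and 1 reads in RAL-208 against 7, 4 and 5 in Canton S, was not tested. mt:ND1 was at 47.6, 63.8 and 35.5 CPM in RAL-208 and at 72.1, 49.7 and 82.8 CPM in Canton S, with the strains overlapping (-0.50 ± 0.32, edgeR adjusted p = 0.466). mt:ND4 overlapped too, at 25.5, 82.3 and 44.7 CPM in RAL-208 and 76.4, 67.5 and 101 CPM in Canton S (edgeR adjusted p = 0.358). The large ribosomal RNA mt:lrRNA was higher in each RAL-208 library, at 142, 206 and 68.4 CPM against 40.7, 20.9 and 36.1 CPM in Canton S, but was not called (1.99 ± 0.49, edgeR adjusted p = 0.210). In all, mitochondrial genes other than the ribosomal RNAs took 0.0548%, 0.0599% and 0.0441% of the reads in RAL-208 eye-antennal discs, wing discs and brains, against 0.316%, 0.274% and 0.369% in Canton S. The labels do not say how mitochondrial sequence was treated in the alignment, and its part in these differences was not tested.

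**Figure D2:**
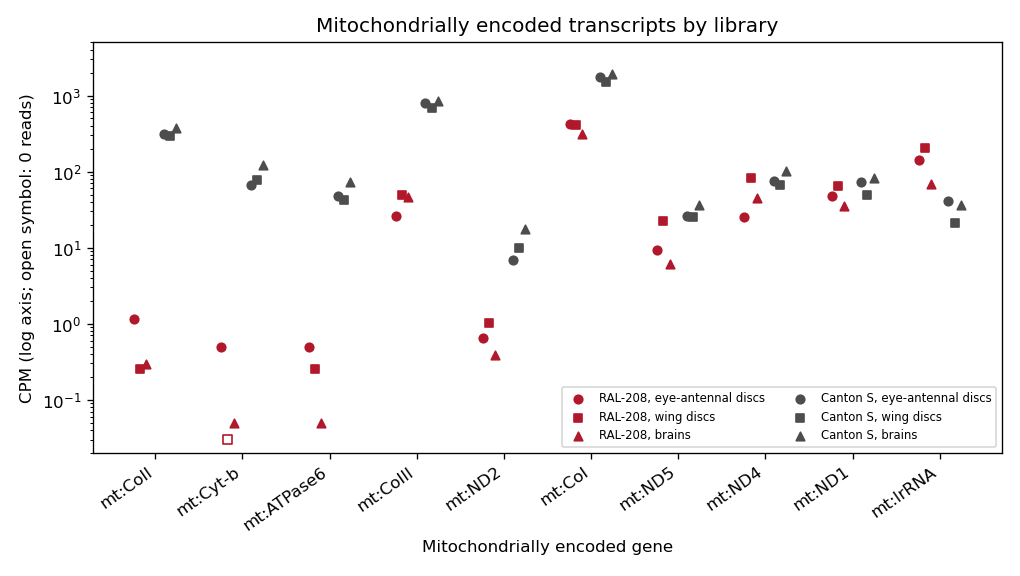
Levels of the 10 tested mitochondrially encoded genes in each library, in CPM on a log axis, with RAL-208 in red to the left of Canton S in grey for each gene, and an open symbol for 0 reads. The fitted difference is 245-fold or more for mt:CoII, mt:Cyt-b and mt:ATPase6, and the strains mix for mt:ND1 and mt:ND4 and stand in the opposite order for mt:lrRNA.

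The nuclear genes called higher in RAL-208 included a sugar transporter, an adenosine kinase, a UDP-glycosyltransferase and a DNA ligase. sut2, which encodes a member of the sugar transporter family, was at 32.8, 60.5 and 14.4 CPM in RAL-208 eye-antennal discs, wing discs and brains, against 0.241, 1.64 and 0.0727 CPM in Canton S. The difference was 6.03 ± 0.46, 65.1-fold (edgeR adjusted p = 0.0387). CG4927 was at 78.4, 78.7 and 64.3 CPM in RAL-208 and at 2.65, 1.04 and 2.47 CPM in Canton S, a 36.5-fold difference (5.19 ± 0.34). Both genes were nearly off in Canton S and at a moderate level in RAL-208 in all 3 tissues.

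Ugt86Di (now Ugt302K1) encodes a UDP-glycosyltransferase, an enzyme class that couples sugars to small lipophilic molecules. It was at 43.4, 76.5 and 18.8 CPM in RAL-208 against 4.41, 9.99 and 2.98 CPM in Canton S, 7.82-fold higher in RAL-208, with the wing disc highest and the brain lowest in both strains. Ady43A (now Adk3), named for adenosine kinase, was at 108, 106 and 112 CPM in RAL-208 against 13.3, 12.3 and 21.0 CPM in Canton S, 7.14-fold higher. Unlike Ugt86Di, its level hardly varied between the tissues of RAL-208. CG5618 was 4.49-fold higher in RAL-208 and CG10589 was 4.17-fold higher. CG5618 overlaps eRF1 on the same strand, and CG10589 overlaps fng on the opposite strand, in the reference annotation.

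Lower down the order, lig3, a DNA ligase of single-strand break repair, was at 94.7, 89.9 and 128 CPM in RAL-208 and at 25.6, 26.8 and 37.1 CPM in Canton S (1.81 ± 0.08, 3.50-fold). CG5660 (ValRS-m), which charges mitochondrial transfer RNA with valine, was 3.11-fold higher in RAL-208, and CG13897 (hng3) was 2.94-fold higher. Eaf, a partner of the transcription elongation factor ELL, was at 200.0, 206 and 206 CPM in RAL-208, against 93.1, 90.5 and 89.6 CPM in Canton S. Its difference of 1.16 ± 0.07 was modest, but relative to its mean its 3 tissues lay closer together, in each strain, than those of the other 11 genes called higher. The zinc finger gene mamo (0.93 ± 0.08) and Atf6 (0.87 ± 0.08), a transcription factor of the endoplasmic reticulum stress response, were the smallest rises called. Atf6 stood at 248, 249 and 222 CPM in RAL-208 and at 138, 127 and 128 CPM in Canton S.

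Among the 11 nuclear genes called lower, 3 were close to undetected in RAL-208. ppk13, of the pickpocket family of sodium channel subunits, had 2, 0 and 3 reads in RAL-208 eye-antennal discs, wing discs and brains, against 440, 586 and 139 reads in Canton S (-7.24 ± 0.51, edgeR adjusted p = 0.0345). dro2 (Drsl2), a gene of the drosomycin-like family of antifungal peptides, had 0, 0 and 2 reads in RAL-208 and 4, 1046 and 233 in Canton S. Over the 3 libraries the Canton S level was 595 times that of RAL-208, with an exact 95% counting interval of 164 to 4914. Nearly all of its Canton S reads came from wing discs and brains, so the eye-antennal libraries say little about it. CG40470 had 3, 0 and 19 reads in RAL-208 against 126, 16 and 1469 in Canton S, and in both strains most of its reads came from brains.

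The others called lower were expressed in both strains. Enzymes were several of them. CG4860, annotated as an acyl-CoA dehydrogenase, was at 4.38, 3.56 and 3.71 CPM in RAL-208 against 32.6, 34.4 and 21.5 CPM in Canton S, 7.27-fold lower in RAL-208. CG6776 (GstO3), an omega-class glutathione S-transferase, was at 40.1, 43.9 and 18.2 CPM in RAL-208 against 137, 179.9 and 56.2 CPM in Canton S. CG11899, predicted to make phosphoserine aminotransferase of serine synthesis, was 2.23-fold lower in RAL-208. CG6543 (Echs1), an enoyl-CoA hydratase of fatty acid oxidation, was 1.93-fold lower. For CG6776, CG11899 and CG6543 the brain was the lowest tissue in both strains, and the strain difference had a like size in brains and discs.

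HIP-R, related to the Hsp70-interacting protein HIP, was at 17.8, 17.5 and 19.2 CPM in RAL-208 against 55.7, 61.6 and 73.9 CPM in Canton S (-1.80 ± 0.11, edgeR adjusted p = 0.0247). HIP-R has a close copy in the genome, so its reads may be split between copies. The copy, HIP, had 38, 19 and 65 reads in RAL-208 and 16, 20 and 16 in Canton S, at least 2-fold higher in RAL-208 in each tissue by CPM and not called (1.46 ± 0.41, edgeR adjusted p = 0.232). CG9951 was 3.30-fold lower in RAL-208. Ama, a secreted immunoglobulin-domain protein that binds the adhesion receptor Neurotactin, was at 108, 142 and 179 CPM in RAL-208 against 217, 316 and 342 CPM in Canton S. Sgs7, a glue protein gene of the larval salivary gland, was at 12.3, 13.5 and 9.97 CPM in RAL-208 against 41.5, 34.6 and 27.1 CPM in Canton S (-1.52 ± 0.13, edgeR adjusted p = 0.0498). Of 23 nuclear genes called, 7 overlap another gene in the reference annotation, and the labels do not say whether the counting used the strand.

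A second rule looked for genes at 5 CPM or more in all 3 libraries of one strain and with at most 3 reads over the 3 libraries of the other. It found 4, none called by edgeR (adjusted p of 0.0581 to 0.128), although DESeq2 called each. CG1701 had 433, 162 and 557 reads in RAL-208 eye-antennal discs, wing discs and brains and 0 in each Canton S library, at least 414-fold higher in RAL-208 with the floor set at 3 reads over the strain's 3 libraries. CG32581 (sordd2) had 299, 91 and 478 reads in RAL-208 and 0 in each Canton S library, at least 312-fold higher in RAL-208. Spn7 (Spn28B), a serpin gene by its name, had 127, 32 and 284 reads in RAL-208 and 0 in each Canton S library, at least 159-fold higher. CG9989 (Sid), named as a stress-induced DNase, was the single gene of the opposite kind, with 0, 0 and 1 reads in RAL-208 and 144, 144 and 70 in Canton S. The Canton S level of CG9989 was 332 times that of RAL-208 (exact 95% counting interval 59.2 to 13141). Counting intervals and floors cover counting error only.

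Among the gene families of detoxification, the cytochrome P450 genes differed in opposite directions in wing discs and brains. The 15 carboxylesterase genes tested did so too, with medians of -0.86 in wing discs and 0.65 in brains. Medians in wing discs and brains were -0.98 and 0.08 for 14 UDP-glycosyltransferase genes, and -0.62 and -0.08 for 27 glutathione S-transferase genes. Of 46 cytochrome P450 genes tested, 0 were called by edgeR, 9 had an unadjusted p under 0.05 and 5 were called by DESeq2; with 0.295% of all genes called, a count of 0 in a list of this size says little. In every tissue of RAL-208, 4 were at least 2-fold higher and 1 at least 2-fold lower, against 1.22% and 1.29% of all genes tested. In eye-antennal discs 12 were at least 2-fold higher in RAL-208 and 8 lower (median 0.39), in wing discs 7 were higher and 24 lower (median -1.28), and in brains 19 were higher and 2 lower (median 0.89). All tested genes leaned the same way: 4.23% were higher and 15.8% lower in wing discs, and 7.86% higher and 2.97% lower in brains. In eye-antennal discs 6.45% were higher and 4.82% lower. The fat body genes, markers of another tissue, had medians of 0.18, -4.40 and 0.86 in the same tissues, and their part in the P450 values was not tested. Cyp6a17, picked after its values were seen, had 144, 12 and 350 reads in RAL-208 and 0 in each Canton S library (edgeR adjusted p = 0.128, DESeq2 adjusted p = 4.60e-09). Cyp6a17 has a close tandem copy, so its reads are uncertain. Cyp4d14 was at 17.5, 12.4 and 27.9 CPM in RAL-208 against 6.42, 4.70 and 5.60 CPM in Canton S. Of 27 glutathione S-transferases tested, 9 had an unadjusted edgeR p under 0.05 and 7 were called by DESeq2. Among all genes tested the shares were 16.6% and 5.32%. The only edgeR call in this family was CG6776. GstE1 went the opposite way from it, at 21.6, 13.7 and 17.9 CPM in RAL-208 against 4.17, 3.43 and 2.84 CPM in Canton S, and missed the threshold (2.34 ± 0.24, edgeR adjusted p = 0.0705).

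The lists of disc identity and cell cycle genes had medians of 0.03 to 0.29, against -0.01 over all genes tested. The 19 wing patterning genes had a median difference of 0.29, the 11 retinal determination genes 0.15, the 9 antennal patterning genes 0.21, the 21 photoreceptor and furrow genes 0.04 and the 25 cell cycle genes 0.03. Of these lists' 84 genes 0 were called by edgeR, against 0.295% of all genes. There were 17 at an unadjusted p under 0.05 and 7 called by DESeq2, against 16.6% and 5.32% of all genes, and none was at least 2-fold apart the same way in all 3 tissues. The lists were not alike in this. Of the 19 wing patterning genes, 7 had an unadjusted edgeR p under 0.05 and 4 were called by DESeq2. Of the 25 cell cycle genes, 7 had such a p and 1 was called by DESeq2. The retinal determination, antennal patterning, and photoreceptor and furrow lists had 1, 1 and 2 genes at such a p. Each of these lists had 1 DESeq2 call.

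Differences within a single tissue rest on 1 library a strain and have no replicate. In eye-antennal discs 6.45% of genes were at least 2-fold higher and 4.82% at least 2-fold lower in RAL-208. In wing discs 4.23% were higher and 15.8% lower. In brains 7.86% were higher and 2.97% lower. The wing pair thus had its differences on the lower side, and its RAL-208 library is the shallowest of the 6. In 443 genes the difference was at least 2-fold one way in 1 tissue and at least 2-fold the opposite way in another.

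Markers of the larval fat body, a storage organ that lies near the discs, differed between the strains by tissue, most of all in wing discs. Summed over 13 fat body genes, the level was 12251, 1395 and 5909 CPM in RAL-208 eye-antennal discs, wing discs and brains, against 20763, 25096 and 3412 CPM in Canton S. In wing discs 11 of the 12 tested members were at least 2-fold lower in RAL-208, in brains 6 were at least 2-fold higher, and in eye-antennal discs 2 were higher and 4 lower. In bulk tissue, fewer cells of a type and less RNA per cell cannot be told apart. The members did not move as one. The late storage protein gene Lsp2 was at 276, 217 and 838 CPM in RAL-208 and at 4895, 6659.6 and 536 CPM in Canton S. Lsp1beta, another storage protein gene, was at 4853, 146 and 1404 CPM in RAL-208 and at 1969, 2839 and 146 CPM in Canton S, so in eye-antennal discs the 2 genes stood in opposite order between the strains. The part of fat body in the called genes was not tested.

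The odorant-binding protein gene Obp99b had its high values in the same Canton S libraries as the fat body genes, at 31.0, 58.9 and 58.7 CPM in RAL-208 and 624, 650.1 and 56.7 CPM in Canton S. Salivary gland markers summed to 96.3, 62.0 and 135 CPM in RAL-208, against 167, 418 and 194 CPM in Canton S. Sgs7 belongs to that list, and the part of gland tissue in its difference was not tested. Sgs3, its neighbour, was at 9.90, 14.2 and 11.6 CPM in RAL-208 against 34.2, 32.4 and 23.3 CPM in Canton S.

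Muscle and blood cell genes stood apart in brains and eye-antennal discs. In brains 15 of 20 tested muscle genes were at least 2-fold higher in RAL-208, in eye-antennal discs 8 were, and in wing discs 1 was. At least 2-fold lower were 0 in brains, 1 in eye-antennal discs and 5 in wing discs. Among all genes tested, 7.86%, 6.45% and 4.23% were higher in brains, eye-antennal discs and wing discs. The shares lower were 2.97%, 4.82% and 15.8%, in the same order. Mhc, the muscle myosin heavy chain, was at 71.2, 3.56 and 128 CPM in RAL-208 eye-antennal discs, wing discs and brains, against 21.8, 7.01 and 6.26 CPM in Canton S. Hemocyte genes summed to 1588, 451 and 1435 CPM in RAL-208 and to 818, 475 and 599.9 CPM in Canton S. Of 12 hemocyte genes tested, 4, 1 and 5 were at least 2-fold higher in RAL-208 eye-antennal discs, wing discs and brains, and 0, 3 and 0 at least 2-fold lower. Their medians were 0.69, -0.57 and 0.87. One member higher in all 3 tissues was Hml, a clotting protein gene of larval blood cells, at 355, 53.9 and 481 CPM in RAL-208 against 135, 33.3 and 86.3 CPM in Canton S. edgeR called 0 genes of the muscle, hemocyte and fat body lists, with 4, 2 and 0 at an unadjusted p under 0.05, and DESeq2 called 1, 2 and 0, of 20, 12 and 12 tested. Over all genes the shares were 0.295% called by edgeR, 16.6% at an unadjusted p under 0.05 and 5.32% called by DESeq2.

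**Figure D3:**
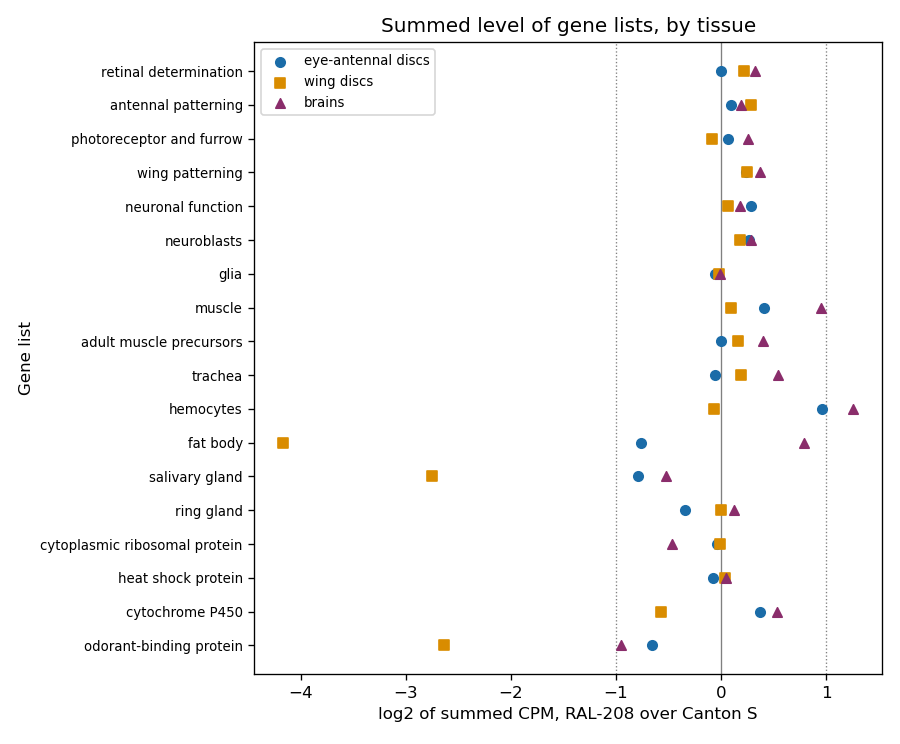
Each row gives, for 1 gene list, the log2 ratio of its summed CPM in RAL-208 over Canton S, with a symbol for each tissue (1 library a strain), and dotted lines mark 2-fold. Lists of disc and nerve identity sit between the dotted lines in all 3 tissues, fat body, salivary gland and odorant-binding genes lie furthest to the left in wing discs, and hemocyte genes lie above 2-fold in brains.

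Of 20 heat shock protein genes tested, 8 were at least 2-fold higher and 1 at least 2-fold lower in RAL-208 brains (median 0.18). Among all genes tested, 7.86% were higher and 2.97% lower in brains. The summed level of the list in RAL-208 brains was 1.04 times that of Canton S brains. With the 3 tissues together, edgeR called 0 of the 20 and DESeq2 called 6. At an unadjusted edgeR p under 0.05 there were 5. The shares of all genes were 0.295%, 5.32% and 16.6%, in the same order. Hsp68, of the heat-inducible Hsp70 family, was at 97.7, 39.6 and 556 CPM in RAL-208 eye-antennal discs, wing discs and brains, against 62.3, 49.4 and 38.8 CPM in Canton S. The co-chaperone gene DnaJ-1 was at 304, 270.0 and 465 CPM in RAL-208 against 194, 176 and 166 CPM in Canton S. Hsp70Bb had 781 reads in RAL-208 brains and 10 in Canton S brains, whereas Hsp70Ba had 0, 0 and 7 reads in RAL-208 eye-antennal discs, wing discs and brains against 40, 28 and 10 in Canton S. The Hsp70 copies are near-identical and their separate counts are uncertain. Cytosolic ribosomal protein genes, 88 tested, had medians of -0.05, -0.04 and -0.50 in eye-antennal discs, wing discs and brains, and 0 were called by edgeR (14 at an unadjusted p under 0.05, and 7 called by DESeq2, against 16.6% and 5.32% of all genes). The dosage compensation RNA roX1, made by males, was at 910.0, 638 and 2248 CPM in RAL-208 and at 938, 469 and 795 CPM in Canton S. The part of the sex of the larvae, or of handling, in the brain differences was not tested.

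The called nuclear genes lie on 5 chromosome arms. Of the genes higher in RAL-208, 5 lie on 2R, 4 on 3L, 2 on 3R and 1 on X, and of the nuclear genes lower in RAL-208, 5 lie on 3L, 3 on 3R and 1 each on X, 2L and 2R, as placed on the BDGP6 annotation. The tested genes numbered 1552 on X, 1652 on 2L, 1898 on 2R, 1876 on 3L and 2313 on 3R. Calls on these arms numbered 2, 1, 6, 9 and 5, too few to compare arms. The shares of tested genes at least 2-fold apart in every tissue were 1.55%, 2.48%, 3.00%, 2.83% and 2.29%, in the same order. No called genes were direct neighbours among the tested genes. Among the 238 genes at least 2-fold apart in every tissue, 32 fell into 16 neighbouring pairs that differed the same way, and there was no run of 3. Several pairs join a called gene to a neighbour that was not called. Eaf stands beside CG1701, lig3 beside Cyp9f3Psi, Ady43A beside the stress response gene Gadd45, and ppk13 beside CG33509. Both lig3 and Cyp9f3Psi overlap the gene CG34402 on the opposite strand in the reference annotation. Gadd45 was at 46.1, 51.6 and 39.8 CPM in RAL-208 against 21.7, 16.3 and 12.1 CPM in Canton S. CG33509 was at 0.0811, 0 and 0.195 CPM in RAL-208 against 18.5, 22.1 and 4.66 CPM in Canton S. Another pair is that of the capsid-like genes Arc1 and Arc2, and Arc1 was at 23.6, 13.2 and 42.8 CPM in RAL-208 against 80.8, 93.6 and 158 CPM in Canton S.

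The deposited table of normalised values lists D. simulans and D. yakuba, 3 libraries each, for most of the called and single-strain genes. The D. simulans stock is labelled with an allele of the gene w (white), whereas the D. yakuba stock is labelled wild type. The part of the w allele in the D. simulans values was not tested. Distance was taken on the mean over tissues of log2(value + 1), with no test, since the genes were chosen for differing between the strains. Of 14 such genes higher in RAL-208 with a D. simulans value, D. simulans was nearer to Canton S in 13 and nearer to RAL-208 in 1. Of 11 genes lower in RAL-208, it was nearer to RAL-208 in 4 and to Canton S in 7. D. yakuba was nearer to RAL-208 in 4 and to Canton S in 11 of 15 genes higher in RAL-208, and nearer to RAL-208 in 6 and to Canton S in 5 of 11 genes lower in RAL-208. A species mean at or near 0 is nearer to the lower strain by construction. Such means include sut2 (0.27 in D. simulans, 0.13 in D. yakuba) and Spn7 (0 in both), and, among genes lower in RAL-208, dro2 (0 in D. simulans). Both species lay below both strains for mamo, CG10589 and CG5618, and above both for CG13897 and HIP-R. These counts therefore do not tell which strain changed.

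For lig3 the normalised values were 56.9, 51.1 and 78.5 in RAL-208 eye-antennal discs, wing discs and brains and 15.1, 15.2 and 21.6 in Canton S, beside 17.6, 17.1 and 19.2 in D. simulans and 17.1, 14.8 and 14.0 in D. yakuba. Canton S and both other species lay together there, with RAL-208 above them. CG32581 was at 26.6, 24.0 and 26.2 in RAL-208, at 0 in every Canton S and D. simulans library, and at 185, 159 and 170 in D. yakuba. ppk13 showed the reverse order of strains, with 0.168, 0 and 0.155 in RAL-208 and 35.7, 42.7 and 10.1 in Canton S, and the other species lay near RAL-208, at 1.27, 0.231 and 1.55 in D. simulans and 0.175, 0.0945 and 0.257 in D. yakuba. HIP-R lay below both other species in both strains.

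**Figure D4:**
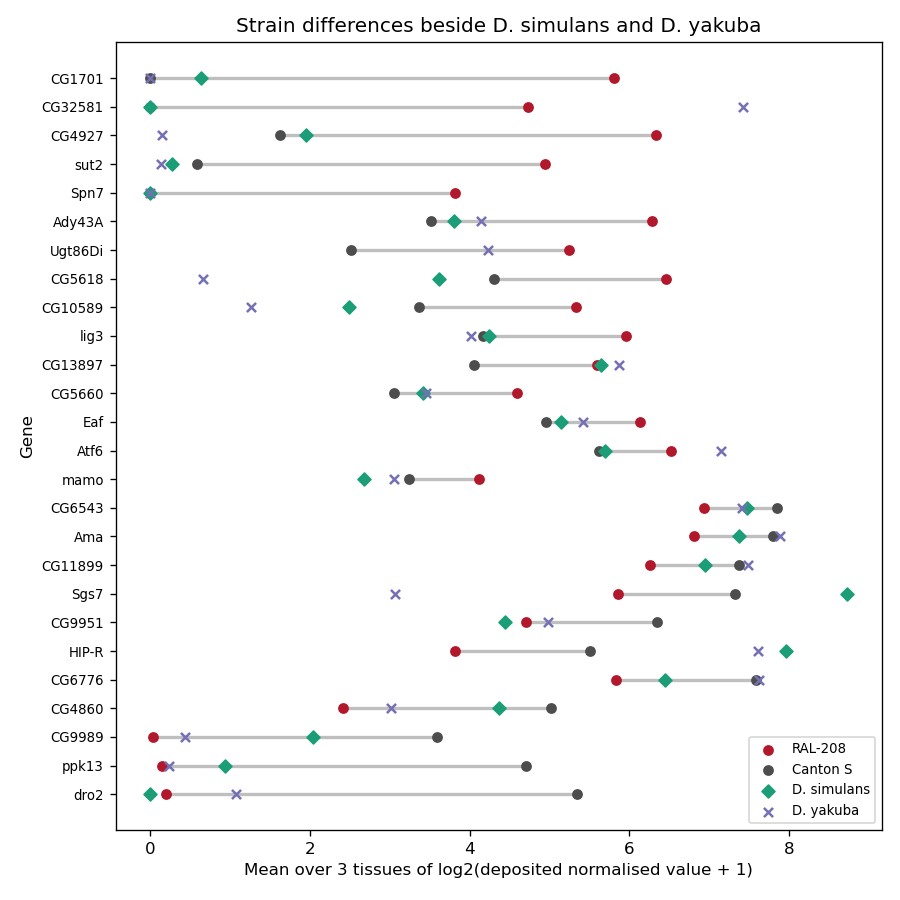
For each called or single-strain gene with a D. yakuba value, circles give the mean over 3 tissues of log2(deposited normalised value + 1) in RAL-208 (red) and Canton S (grey), joined by a bar, with D. simulans as diamonds and D. yakuba as crosses. For lig3, sut2 and CG4927 both other species lie near Canton S, for dro2 and ppk13 they lie near RAL-208, and for HIP-R they lie above both strains.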

How the data were processed

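Read counts per gene for the 6 libraries are as deposited by the authors, 1 file a library, and their unit is the raw count. RNA was taken with a column kit and made into TruSeq libraries per the labels' protocols. TopHat2 2.0 and HTSeq are named per the submitters' processing notes; no source used here states the HTSeq version, the genome build or the strand setting. The authors' deposited table of normalised values (a signal scaled per gene and library) gave gene symbols and the D. simulans and D. yakuba values; its columns headed Dmel were taken as RAL-208, because Canton S has columns of its own there, and 15 other per-sample columns were not used. Identifiers were paired with the table's symbols by current name, by synonym, or by proportional values (natural-log tolerance 1e-06), which gave 15065 of 15439 a symbol. Chromosome arms, gene order and overlaps come from the Ensembl BDGP6 annotation, with no coordinates.

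Genes at 1 CPM in 2 libraries were scaled by TMM and tested with edgeR 4.0.16 (quasi-likelihood, tissue as block; R 4.3.3); the standard error is the log2 difference over the square root of F. DESeq2 1.42.0 was an alternative. Per-tissue differences added 0.5 reads. The code was tested on simulated data. Alternatives were another scaling, 2 filters, no block, and each tissue left out. By rule, named genes are the 15 largest called changes each way at a mean of at least 10 CPM, up to 4 called members of each list, and the single-strain genes. The other called genes are named as the rest of the 28. Besides those said to be picked later, uncalled genes given as tissue markers, list members, copies or neighbours are examples picked by no rule. The members and lists were chosen with earlier results of these data known. No sequence is printed.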

Additional observations from a re-analysis of the deposited data

How the results depend on the processing

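All 28 called genes kept their direction under every alternative that could fit them. The number called did not hold. It was 28 (12 higher and 16 lower in RAL-208) as reported, 27 (12 and 15) with DESeq2's size factors in edgeR, 504 (316 and 188) with DESeq2's own test, 43 (19 and 24) with no filter on low counts, 20 (6 and 14) with a filter at 5 CPM, and 0 (0 and 0; 656 at an unadjusted p under 0.05) without the tissue block. Leaving out 1 tissue in turn gave 0 to 333 calls, 0 to 226 of them higher and 0 to 107 lower; each of these fits has 1 residual degree of freedom, and the highest count, without wing discs, held the 27 called genes it tested. With the mitochondrially encoded genes left out, an alternative chosen after seeing the data, 16 were called (7 higher and 9 lower), so 7 of the 23 nuclear calls were lost. The set at least 2-fold apart in every tissue was 238, 182 with 5 prior reads, 236 with the other scaling, and 112 with the 5 CPM filter. The single-strain genes numbered 4, 8 with the level lowered to 2 CPM, and 3 with 0 reads required. The median over all tested genes moved by under 0.1 log2 between scalings. No paired analysis by replicate number was possible because the labels give none; the tissue block is the pairing used. Depth limits the RAL-208 wing library most, with 4114414 reads.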

Other observations

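Outside the called set, 214 genes differed at least 2-fold the same way in every tissue, and 4 of them, picked after their values were seen, are given as values. l(2)01289 (now hlk) was at 46.4, 6.60 and 99.7 CPM in RAL-208 eye-antennal discs, wing discs and brains, against 2.49, 1.64 and 2.91 CPM in Canton S (4.02 ± 0.62, edgeR adjusted p = 0.128; DESeq2 adjusted p = 2.55e-08). The insulin-like peptide gene Ilp6 was at 8.76, 7.62 and 18.6 CPM in RAL-208 against 33.4, 40.6 and 39.8 CPM in Canton S (-1.76 ± 0.28, edgeR adjusted p = 0.129). scaf, which encodes a secreted protease-like protein, was at 30.7, 48.8 and 26.3 CPM in RAL-208 against 179.8, 129.9 and 58.3 CPM in Canton S (-1.70 ± 0.30, edgeR adjusted p = 0.149). The ionotropic receptor gene Ir7f, at 15, 4 and 23 reads in RAL-208 eye-antennal discs, wing discs and brains, had 0 reads in each Canton S library.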
